A study of Mus musculus with 6 samples.

Results

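The miRNAs described here are miR-26a-5p and miR-26b-5p, a pair of closely related mature miRNAs, followed in miRNA-seq of white adipose tissue (WAT) from ApoE-deficient mice. They were taken by the miRBase accession of the mature sequence, MIMAT0000533 for miR-26a-5p and MIMAT0000534 for miR-26b-5p, and are 2 of the 707 mature miRNAs listed in the deposited counts. The study asked how chronic intermittent hypoxia (CIH), a model of the repeated oxygen loss of obstructive sleep apnea, changes the miRNAs of WAT. The CIH group (3 libraries) came from male ApoE-deficient mice housed for 8 weeks in cages where oxygen fell and returned to normal in short cycles. The control group (3 libraries) came from male ApoE-deficient mice without CIH, so both groups lack apolipoprotein E, a carrier protein needed for the removal of lipoproteins from plasma, and neither holds wild-type mice. The age of the mice, their strain background, the fat depot and whether a library was made from 1 animal are not given in the sources used here, so the p-values measure the spread between these libraries, which may be in part technical. The label of WAT was not checked against miRNAs typical of adipose or other tissues, because the tables used here do not pair the other accessions with names.

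A miRNA guides the RNA-induced silencing complex to mRNAs whose 3′ untranslated regions pair with its seed, the stretch near its 5′ end. It thereby lowers the translation and stability of these mRNAs. The miR-26 family is abundant in many mouse and human tissues, and its genes lie inside genes for small phosphatases that act on the C-terminal domain of RNA polymerase II. In fat, miR-26a and miR-26b are known from other work for effects on the differentiation of fat cell precursors, on insulin sensitivity and on the thermogenic program of adipocytes. No mRNA was measured here, so none of these roles was tested.

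The mature sequences show why the pair is treated as 1 family and how reads can be told apart. They were taken from RefSeq (GRCm38.p6), where both names matched, and the seed, bases 2 to 8 counted from the 5′ end, is in capitals.
miR-26a-5p: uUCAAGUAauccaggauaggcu
miR-26b-5p: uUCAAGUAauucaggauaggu
Both carried the same seed, UCAAGUA, and no other of the 1679 mature names in that table did. Over the 21 bases they share by position they differed at 2, C11U and C21U (the base of miR-26a-5p first, then the position, then the base of miR-26b-5p), and miR-26a-5p is 1 base longer, at 22 bases. The nearest other mature sequence of the table had 8 mismatches to one of them. How the authors assigned reads with sequencing errors or trimmed ends is not given in the sources used here, so exchange of reads between the pair was not tested. No other listed miRNA had the same counts as either of them in all libraries.

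The hairpins show that the pair comes from 3 loci. In each, the mature 5p sequence is in capitals.
Mir26a-1: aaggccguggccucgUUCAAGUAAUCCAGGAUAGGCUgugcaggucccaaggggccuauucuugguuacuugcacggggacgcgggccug
Mir26a-2: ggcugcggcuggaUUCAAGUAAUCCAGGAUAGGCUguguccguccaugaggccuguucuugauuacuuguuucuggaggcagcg
Mir26b: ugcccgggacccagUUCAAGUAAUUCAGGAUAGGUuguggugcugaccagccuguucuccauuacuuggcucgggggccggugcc
Mir26a-1 is found on chromosome 9 (119031796 to 119031885 of GRCm38, plus strand), and it is intronic in all 3 GENCODE transcripts of Ctdspl that overlap it. Mir26a-2 is found on chromosome 10 (126995530 to 126995613, plus strand) within Ctdsp2, where it is intronic in 1 of the 3 overlapping transcripts. The other 2 have an exon that shares 1 base with the hairpin. Mir26b is found on chromosome 1 (74394310 to 74394394, plus strand) and is intronic in both overlapping transcripts of Ctdsp1. All 3 host genes are protein-coding, lie on the same strand as their hairpin and encode the small phosphatases named above. Because Mir26a-1 and Mir26a-2 give the same mature 5p sequence, the counts of miR-26a-5p are a sum over both loci. The 3p arms would tell the loci apart, since they differ from each other at 4 to 8 bases, but their names were not joined to accessions and they are not analysed here.

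The libraries held between 636963 and 4783768 counts, and control 2 was the deepest of the 6. The TMM factors, which correct library totals for composition, ran from 0.575 in control 1 to 1.45 in CIH 3. Control 1 and control 2 stood apart from the other 4 libraries. They held at least 1 count of 487 and 552 miRNAs, against 631 to 649 in the others. Over all miRNAs tested, the log2 CPM of these 2 controls correlated at 0.831 with each other and at 0.595 to 0.712 with the other 4 libraries, which correlated at 0.952 to 0.974 among themselves. Of the 204 miRNAs that averaged 100 CPM or more, 17 were at 0 in both control 1 and control 2, and 3 were at 0 in any of the other 4. The part of this split in the results on the pair was not tested, and the comparisons are also given without single controls. All miRNA levels here are shares of RNA from the whole tissue, in which fewer cells of a type and less RNA per cell cannot be told apart.

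In mean level, miR-26a-5p and miR-26b-5p were both lower in the CIH group than in the control group, but neither passed the test, and control 3 lay among the CIH libraries for both. miR-26a-5p, the more abundant of the pair, had 45267, 151593 and 12270 counts in control 1, 2 and 3 and 22912, 9505 and 12178 counts in CIH 1, 2 and 3. As a share of all counts in its library, it took 3.31%, 3.17% and 1.55% in the controls and 1.45%, 1.29% and 1.91% in the CIH libraries. Control 1 and control 2 were therefore high, and the share of control 3 was inside the range of the CIH group. The Wilson 95% intervals of these shares, which cover counting error only, were narrow: the widest ran from 1.88% to 1.95% in CIH 3, so counting error is small beside the spread between libraries.

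miR-26b-5p had 7430, 15667 and 1848 counts in control 1, 2 and 3 and 3799, 1424 and 1790 counts in CIH 1, 2 and 3. Its shares were 0.544%, 0.328% and 0.233% in the controls and 0.241%, 0.193% and 0.281% in the CIH libraries. Control 1 stood highest, control 2 was next, and control 3 was again inside the CIH range, so the groups overlapped. With TMM normalization, which divides the counts by library size times the factors above and is given as CPM, counts relative to a fixed library size, miR-26a-5p was at 57593, 36574 and 11060 CPM in the controls and at 18400, 10270 and 13209 CPM in the CIH libraries. On the same scale miR-26b-5p was at 9453, 3780 and 1666 CPM in the controls and at 3051, 1539 and 1941 CPM in the CIH libraries. The order of the 6 libraries was the same for both miRNAs on this scale: control 1, control 2, CIH 1, CIH 3, control 3, CIH 2.

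**Figure D1:**
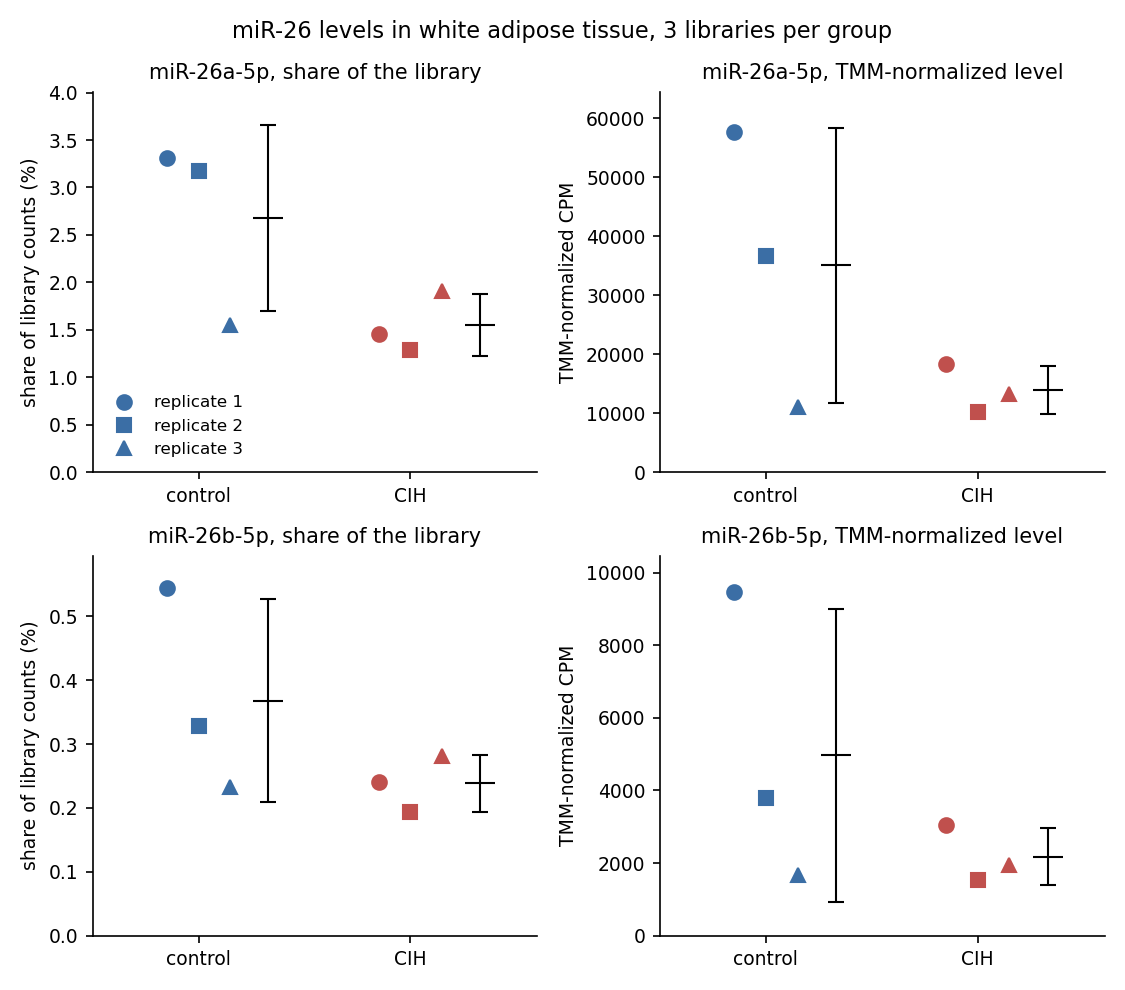
Each point is a library, with the replicate number by shape, and the bar beside it is the mean ± SD of the group (n = 3). The left panels give the share of library counts in percent and the right panels TMM-normalized CPM, for miR-26a-5p (top) and miR-26b-5p (bottom); in every panel control 3 lies between the lowest and the highest CIH library.

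The ranks within each library, which need no scaling between libraries but depend on the other miRNAs present, gave a like picture. miR-26a-5p was the number 6, 7 and 12 miRNA by count in control 1, 2 and 3 and number 11, 12 and 11 in CIH 1, 2 and 3. It was thus among the most abundant miRNAs of every library, and number 7 of 707 by mean TMM-normalized CPM. miR-26b-5p was number 21, 34 and 53 in the controls and number 40, 51 and 44 in the CIH libraries, and number 38 by the mean. For both, control 1 and control 2 held better ranks than every CIH library, and control 3 had a rank no better than any of them. Other miRNAs differed between these libraries as well. MIMAT0004846 outranked the pair in every library except control 1 and control 2, with 36319 to 70925 counts against 8 and 24. MIMAT0000904 outranked the pair in control 1 only, with 71525 counts. How far such miRNAs set the ranks of the pair was not tested.

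The groups were compared with edgeR's quasi-likelihood test, fitted on the 633 miRNAs with at least 10 counts over the libraries. For miR-26a-5p the controls had a mean of 35076 ± 23303 CPM (SD, n = 3) and the CIH libraries one of 13960 ± 4117 CPM (SD, n = 3). The log2 fold change was -1.33 (SE 0.82, 95% interval -3.29 to 0.63), with an adjusted p = 0.882 by edgeR with Benjamini-Hochberg adjustment. The interval in linear terms ran from 0.102 to 1.55 times the control level, so a large decrease and a modest increase both lie within it. For miR-26b-5p the controls had a mean of 4966 ± 4027 CPM (SD, n = 3) and the CIH libraries one of 2177 ± 783 CPM (SD, n = 3). The log2 fold change was -1.19 (SE 0.82, 95% interval -3.16 to 0.78), with an adjusted p = 0.882 by the same edgeR test. In that fit an adjusted p-value below 0.05 was found for 0 of the 633 (0%), and an unadjusted one below 0.05 for 16 (2.53%). Neither miR-26a-5p nor miR-26b-5p was among the 16. The groups did not overlap for 51 of the 633 (8.06%), and the pair was not among these either.

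Among all miRNAs tested, the fold changes of the pair were on the low side without being extreme. The median log2 fold change over the 633 was 0.07, so relative to that median miR-26a-5p stood at -1.40 and miR-26b-5p at -1.26. A lower fold change was found for 104 miRNAs (16.4%) in the case of miR-26a-5p and for 117 (18.5%) in the case of miR-26b-5p. Among the 78 miRNAs that averaged 1000 CPM or more, the median log2 fold change was -0.18 and 45 were below 0. Such a mean does not require a high count in every library: MIMAT0004236 had 0 counts in control 1 and control 2. Of these 78, 16 had a lower fold change than miR-26a-5p, 21 had a lower one than miR-26b-5p, and 2 had an unadjusted p-value under 0.05. These 2 include MIMAT0000679, which was at 8494 TMM-normalized CPM in control 1 and at 14.5 to 65.4 in the other libraries.

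**Figure D2:**
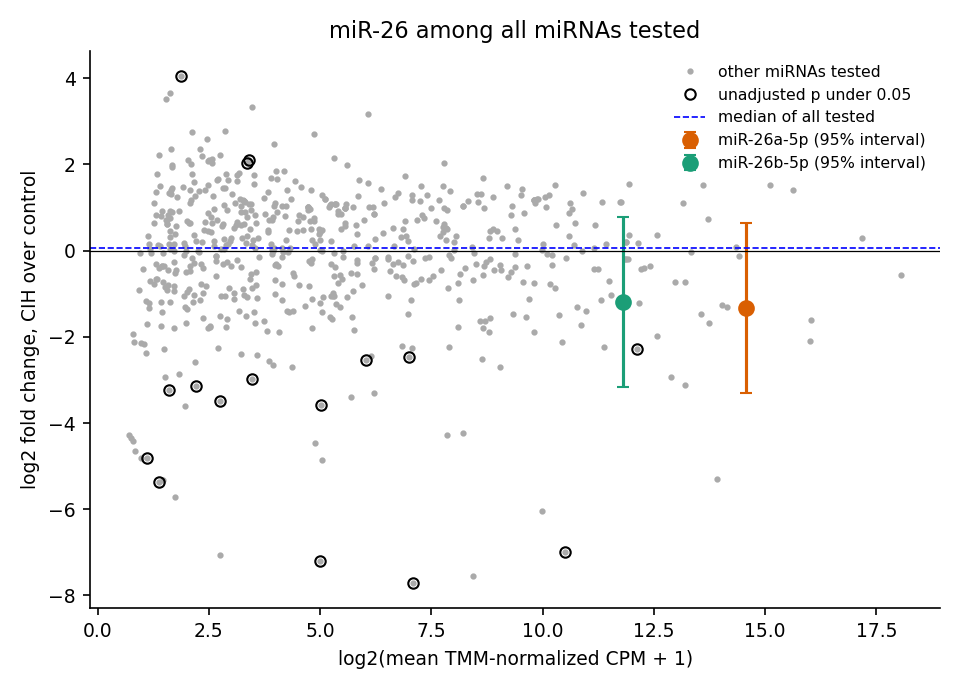
Each dot is 1 of the 633 miRNAs tested, placed by log2(mean TMM-normalized CPM + 1) on the x axis and its log2 fold change (CIH over control) on the y axis; open circles have an unadjusted p-value under 0.05. miR-26a-5p (-1.33) and miR-26b-5p (-1.19) are shown with 95% intervals that include 0, and the dashed line is the median of all tested, 0.07.

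The spread of the pair lay mostly in the control group. Between control 1 and control 3, miR-26a-5p differed 5.21-fold and miR-26b-5p 5.68-fold in TMM-normalized CPM, and 2.14-fold and 2.33-fold in plain CPM. The largest fold between any pair of CIH libraries in TMM-normalized CPM was 1.79 for miR-26a-5p and 1.98 for miR-26b-5p. The coefficient of variation was 66.4% in the controls and 29.5% in the CIH group for miR-26a-5p, and 81.1% and 36.0% for miR-26b-5p. Abundant miRNAs in general showed the same, taken as the 78 that averaged 1000 CPM or more, the pair included. Their medians were 84.4% for the controls and 26.2% for the CIH group, and 70 of the 78 varied more among the controls. The biological coefficient of variation that edgeR gave the pair, 0.892 for miR-26a-5p and 0.902 for miR-26b-5p, was under the common value of 1.05. It was near the middle of all miRNAs tested: 54.3% had a value no higher than that of miR-26a-5p, and 56.2% no higher than that of miR-26b-5p.

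Single control libraries set the size of the difference. Without control 3, the log2 fold change was -1.77 for miR-26a-5p (SE 0.58, adjusted p = 0.0839 by edgeR) and -1.62 for miR-26b-5p (SE 0.62, adjusted p = 0.120 by edgeR). Both then had an unadjusted p-value under 0.05, as had 225 of the 614 miRNAs tested in that fit (36.6%), and neither was among the 118 (19.2%) with an adjusted p-value under 0.05. Without control 1, the log2 fold change was -0.77 for miR-26a-5p (adjusted p = 0.942 by edgeR) and -0.32 for miR-26b-5p (adjusted p = 0.942 by edgeR). Without control 2 it was -1.22 and -1.28 (adjusted p = 0.968 for each by edgeR). Control 1 and control 2 were the libraries with the highest levels of both miRNAs in TMM-normalized CPM, and without both of them 1 control is left, which allows no spread among controls. That library, control 3, held 0.601, 1.08 and 0.837 times the TMM-normalized CPM of miR-26a-5p in CIH 1, 2 and 3. For miR-26b-5p it held 0.546, 1.08 and 0.858 times the levels of the same libraries, so control 3 was not above the CIH group mean of either miRNA. The plot of fold changes by setting gives these values beside the other fits.

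**Figure D3:**
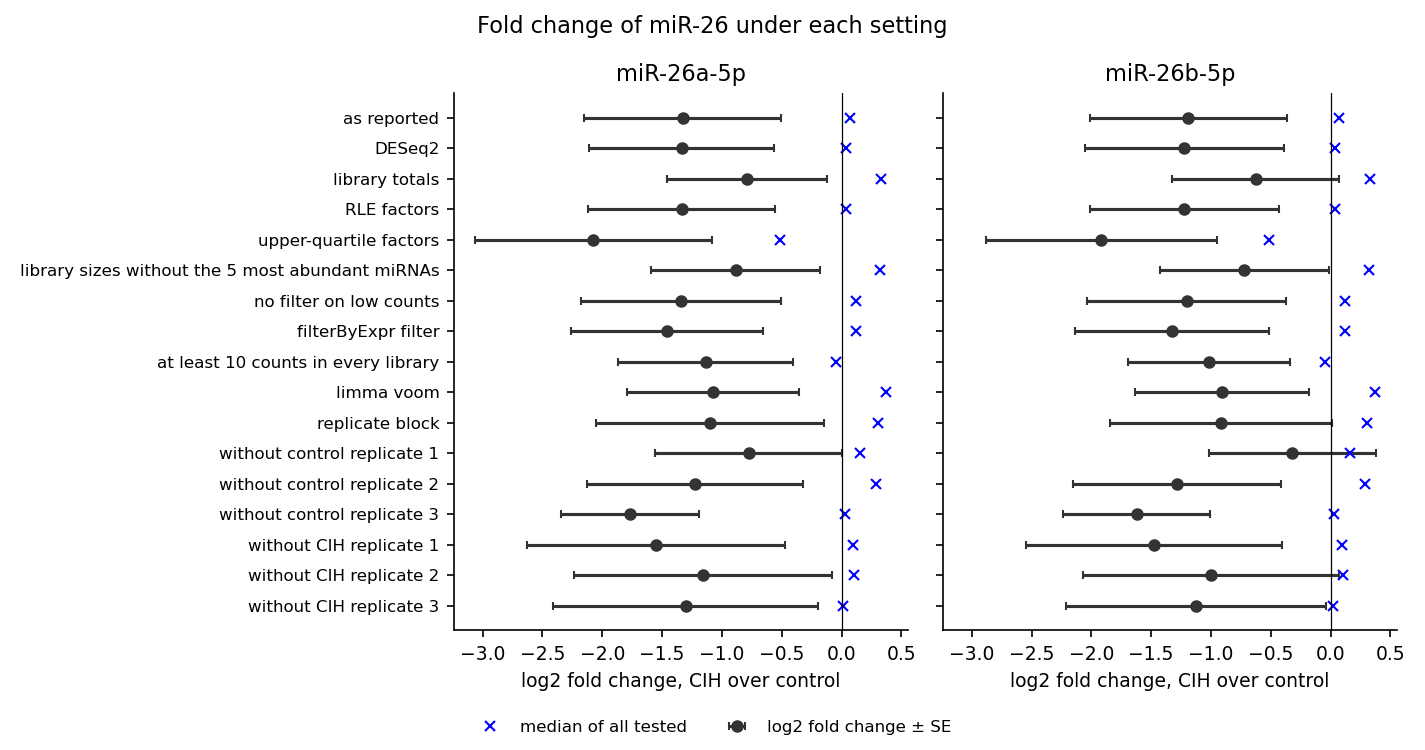
Points are the log2 fold change (CIH over control) of miR-26a-5p (left) and miR-26b-5p (right) with standard errors as bars, in the fit as reported and in 16 alternatives, and crosses are the median of all miRNAs tested in the same fit. All points lie below 0, from -2.07 to -0.77 for miR-26a-5p and from -1.92 to -0.32 for miR-26b-5p, and the medians move from -0.52 to 0.37 between settings.

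Counted as 1 family with a shared seed, miR-26a-5p and miR-26b-5p together took 3.86%, 3.50% and 1.78% of the counts in control 1, 2 and 3 and 1.69%, 1.48% and 2.19% in CIH 1, 2 and 3. The mean share was 3.05% ± 1.11 (SD, n = 3) in the controls and 1.79% ± 0.365 (SD, n = 3) with CIH. The difference of -1.26 percentage points had p = 0.2 in a two-sided exact permutation test, where 3 libraries against 3 cannot give less than 0.1. Control 3 lay between CIH 1 and CIH 3, so the groups overlapped for the sum as they did for each miRNA.

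The ratio of the counts of miR-26a-5p to those of miR-26b-5p within a library does not depend on library size or normalization, and addresses whether the pair moved together. It was 6.09, 9.68 and 6.64 in control 1, 2 and 3 and 6.03, 6.67 and 6.80 in CIH 1, 2 and 3. In 5 of the 6 libraries the ratio was close, and control 2 stood apart from them. The 95% interval of the ratio in control 2 was 9.52 to 9.84, from the Wilson interval of the share of miR-26a-5p in the sum and for counting error only, and the highest upper bound in any other library was 7.15. The intervals of control 1 (5.94 to 6.24) and CIH 1 (5.83 to 6.24) lay under those of control 3, CIH 2 and CIH 3, so small differences beyond counting error existed within each group. miR-26a-5p made up between 85.8% and 90.6% of the pair's counts. These are ratios of counts, in which adapter ligation can favour 1 sequence over another, and not of molecules.

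Between the groups, the mean ratio was 7.47 ± 1.93 (SD, n = 3) in the controls and 6.50 ± 0.414 (SD, n = 3) in the CIH group. The mean log2 ratio was 0.17 lower in the CIH group (2.70 against 2.87), with p = 0.7 in a two-sided exact permutation test. Without control 2 the difference turned to 0.030, higher in the CIH group, with p = 0.7 in the same permutation test over 10 splits. A change of the ratio with CIH was therefore not detected, and its sign rested on 1 library.

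**Figure D4:**
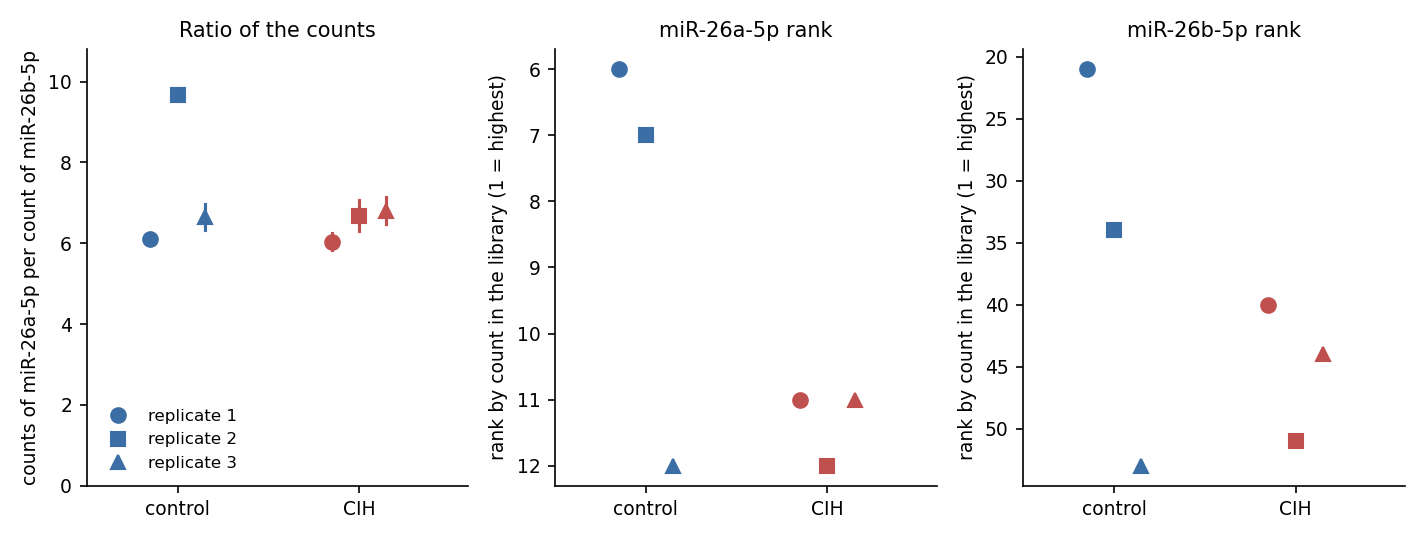
The left panel gives the counts of miR-26a-5p per count of miR-26b-5p in each library with 95% counting intervals, where control 2 (9.68) lies above the other libraries (6.03 to 6.80). The other panels give the rank of each miRNA by count in its library, with rank 1 at the top of an inverted axis; control 3 (ranks 12 and 53) sits at or below the level of the CIH libraries.

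Across the 6 libraries the levels of the pair ran nearly in parallel. The Pearson correlation of their log2 CPM was 0.969 with TMM normalization and 0.905 with library totals, over 6 libraries that include both groups, and it is given as a description, since both values of a library share its scaling factor. Of the 203 other miRNAs that averaged 100 CPM or more, 7 followed miR-26a-5p more closely than miR-26b-5p did, and 4 followed miR-26b-5p more closely than miR-26a-5p did. The closest to miR-26a-5p was MIMAT0000383 (r = 0.986, mean 537 CPM), and the closest to miR-26b-5p was MIMAT0003711 (r = 0.987, mean 234 CPM). A correlation of at least 0.9 over the 6 libraries was reached by 19 of the 203 for miR-26a-5p and by 15 for miR-26b-5p, while the median over the 203 was 0.054 and -0.0044. With library totals these medians were -0.434 and -0.505, so the likeness of the pair to the bulk of miRNAs depended on the scaling. Ordered by likeness to miR-26a-5p, miR-26b-5p was number 8 with TMM normalization and number 7 with library totals. Ordered by likeness to miR-26b-5p, miR-26a-5p was number 5 with both.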

How the data were processed

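Small RNA libraries of WAT from ApoE-deficient mice were sequenced for 3 CIH and 3 control samples, grouped by their labels. The values deposited by the authors are raw counts of reads, not normalized, for 707 mature miRNA accessions. The trimming, aligner, miRNA database release, genome build and treatment of reads with more than 1 match are not given in the sources used here, and such choices could move reads between miR-26a-5p and miR-26b-5p. The library totals ran from 636963 to 4783768 counts. No 2 libraries were alike within sampling noise, and each counted as 1 replicate.

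The quasi-likelihood test of edgeR 4.0.16 in R 4.3.3, with TMM factors and no covariate, was fitted on the 633 miRNAs that reached a summed count of 10, and p-values were adjusted over all of them by Benjamini-Hochberg. Standard errors were derived from the fold changes and test statistics. The test was also run on simulated counts with known changes. Their spread was set far below that of these libraries, and the changes were larger than those of the pair. That run therefore cannot show how the test performs at the spread seen here. Shares and ratios were compared with exact permutation tests. Likeness between miRNAs was measured by Pearson correlation over libraries, on log2 CPM with 2 as prior count. These steps and the plots used Python 3.11.15 (scipy 1.17.1, numpy 2.4.6, pandas 2.3.3, matplotlib 3.10.9). The alternatives were DESeq2 1.42.0, limma 3.58.1 with voom, library totals, factors by RLE or upper quartile, library sizes that leave out the top 5 miRNAs, 3 other low-count filters, a block on replicate number, and fits that omit each library in turn, and for shares and ratios another denominator or a pseudocount of 1.

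The miRNAs described, the lists and the alternatives were chosen with earlier results of these data known. The rule for named miRNAs took the pair, their 3p arms, members of lists on adipogenesis and on cell types, neighbours in rank, and the 3 miRNAs with the most similar pattern. The tables used here do not pair accessions with names, so the arms, lists and neighbours were not analysed here and 1 accession per miRNA is given for the pattern. Loci were taken from RefSeq and GENCODE release M21 on GRCm38.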

Additional observations from a re-analysis of the deposited data

How the results depend on the processing

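The log2 fold changes of miR-26a-5p and miR-26b-5p stayed below 0 in all 16 alternatives, and neither reached an adjusted p-value under 0.05 in any of them. In the 10 that kept every library, miR-26a-5p ran from -2.07 with upper-quartile factors to -0.79 with library totals, and miR-26b-5p from -1.92 to -0.63 with the same settings. Relative to the median of all miRNAs in each fit, which moved from -0.52 to 0.37, these 10 gave -1.58 to -1.09 for miR-26a-5p and -1.44 to -0.96 for miR-26b-5p. With each library left out in turn, miR-26a-5p ran from -1.77 (without control 3) to -0.77 (without control 1) and miR-26b-5p from -1.62 to -0.32 for the same libraries. The adjusted p-values from these fits ran from 0.0839 to 0.975 over all alternatives for miR-26a-5p and from 0.120 to 0.975 for miR-26b-5p.

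Calls at an adjusted p-value below 0.05 over all miRNAs numbered 0 in the fit as reported and in 15 of the 16 alternatives. Leaving out single libraries gave 0 to 118 calls, the 118 without control 3. At an unadjusted p-value below 0.05 there were 16 miRNAs with edgeR, 26 with DESeq2 and 75 with limma voom. The difference in log2 ratio of miR-26a-5p to miR-26b-5p lay between -0.304 and 0.0301 when single libraries were omitted, and turned without control 2 (0.0301). The difference in the pair's share, -1.26 percentage points as reported, lay between -1.89 and -0.849 when single libraries were omitted. It was -2.39 with the TMM effective library size as denominator and -3.27 with the total without the 5 most abundant other miRNAs, with p = 0.3 for each in the exact permutation test. Replicate numbers 1 to 3 occur in each group, and no pairing was assumed. Deviations from the group means correlated between same-numbered libraries at 0.353, -0.116 and 0.0195. The value for replicate 1 was the highest, and whether control 1 and CIH 1 share a source of variation was not tested. In the fit with a replicate block, the log2 fold change was -1.10 for miR-26a-5p and -0.92 for miR-26b-5p, and 0 miRNAs had an adjusted p-value under 0.05. The setting without miRNAs typical of pancreas was not run, because accessions are not paired with names.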
